A study of Gallus gallus with 21 samples.

Results

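A set of 139 mRNAs is described here, out of 14558 mRNAs measured in the cerebrum of female Tibetan chickens. Among the 7 stages analysed, their mean level was highest at 100 days of age (D100). The set was chosen on the measured values themselves. An mRNA was kept if it lay on chromosome 1 to 15 or 17 to 20, if its D100 mean was the highest of the 7 stage means, if the libraries of D100 replicates 1 and 2 were both above every library of the other stages, and if the D100 mean exceeded the next highest stage mean by at least 0.5. Levels are log2(FPKM+1), where FPKM counts sequenced fragments of an mRNA scaled by its length and by the mapped reads of the library, so a difference of 1 corresponds to an FPKM about 2 times as high for a well expressed mRNA. A ceiling of 150 mRNAs, ranked by that margin, was not reached. Of the 11001 mRNAs on these chromosomes, 850 (7.73%) had their highest mean at D100, 339 (3.08%) also had both of these libraries above all others, and 139 (1.26%) also had the margin. Among the 3557 mRNAs elsewhere in the genome, 28 (0.787%) met the other conditions and are not members.

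The libraries came from embryos at embryonic days 12, 16 and 20 (E12 with 3, E16 with 3 and E20 with 2), from growing birds at 100 days (D100, 3), and from hens aged 1, 3 and 5 years (Y1 with 3, Y3 with 2 and Y5 with 2), each from a separate bird with no treatment. The embryos were incubated and sexed by PCR, the D100 birds were raised on a poultry farm in Ya'an, and the hens were collected in Lhasa, as the sample labels state. Age and place therefore cannot be told apart between the hens and the younger birds. The birds of the stage named D300, which the study groups with D100 as growth periods, were not analysed here. Whether a member was as high or higher at D300 is therefore not known. The Y3 and Y5 libraries carry no usable replicate number and are called a and b.

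At 100 days a hen is a growing pullet that has usually not begun to lay. In birds most neurons of the cerebrum, which holds the pallium and the striatum, are born before hatching, while synapses, myelin and glia go on maturing afterwards. In bulk tissue fewer cells of a type and less RNA per cell cannot be told apart. The rows carry Ensembl gene identifiers without names, and 0 of the 14558 identifiers could be paired with a symbol here. The members are therefore given by identifier and chromosome, no function is assigned to any of them, and neither the lists of brain cell types and pathways nor the labelled tissue could be checked against markers.

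Facts of the libraries bear on these values. No counts accompany the FPKM values, so the counting error of a level is unknown. The summed FPKM per library ran from 522546 to 811815, the single most abundant mRNA took 18.6% to 40.6% of it, and 57 to 318 mRNAs were listed at 0. Mitochondrial mRNAs took 28.8% of the summed FPKM in D100 replicate 3 and 0.427% to 5.62% in the other 17 libraries. D100 replicate 3 stood apart from its group in this respect, and the counts of the rule, the margins and the D100 levels are therefore also given without it. All p-values rest on the spread between birds of the same stage, pooled for each mRNA over all stages, D100 included.

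The margin of the D100 mean over the next highest stage mean ran from 0.506 to 2.08 with a median of 0.733. As a ratio of mean FPKM, D100 was 1.45 to 10.1 times the next stage, with a median of 1.93. With the D100 mean taken from replicates 1 and 2 alone, the margin of the same members ran from 0.512 to 2.80 with a median of 1.08, and the ratio from 1.47 to 7.60 with a median of 2.37. These values chose the members and are a description without a test. The D100 mean level had a median of 4.87 and ran from 1.07 to 8.78, and without replicate 3 a median of 5.13 and a range from 1.20 to 9.24. Over all 18 libraries the mean level of a member had a median of 3.67, against 3.48 for all mRNAs. A mean FPKM of at least 1 was reached by 133 of the 139 members, and 16 members had at least 1 library listed at 0.

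The leading member was ENSGALG00000001564 on chromosome 19, with a margin of 2.08. Its level was 6.53, 6.05 and 4.14 in D100 replicates 1 to 3. The 8 embryo libraries ran from 1.39 to 3.68 with a median of 1.78, and the 7 adult libraries from 2.86 to 3.66 with a median of 3.20. All 3 D100 libraries were above the other 15, but replicate 3 by only 0.45.

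ENSGALG00000013568 on chromosome 2 had a margin of 1.98. It stood at 4.97, 4.61 and 4.41 in the D100 libraries, at 0.91 to 3.57 in embryos with a median of 2.13, and at 1.21 to 3.12 in hens with a median of 1.62. The highest of the embryo libraries was E16 replicate 3 at 3.57, while E16 replicates 1 and 2 were at 1.06 and 0.91. The D100 libraries were close together here and did not overlap with any other library.

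ENSGALG00000015271 on chromosome 1 had a margin of 1.96. It was at 6.05, 5.24 and 4.49 in the D100 libraries. The embryos ran from 1.08 to 4.51 with a median of 2.49, and the hens from 1.70 to 2.37 with a median of 1.83. E16 replicate 3, at 4.51, was level with D100 replicate 3, whereas the hens were all far below.

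ENSGALG00000005621 on chromosome 13 was the member with the highest D100 level. It stood at 9.50, 8.99 and 7.85 in the D100 libraries, with a margin of 1.80. Its embryo libraries ran from 4.98 to 8.02 with a median of 5.74, and its adult libraries from 5.53 to 6.69 with a median of 6.48. E16 replicate 3 (8.02) was again above D100 replicate 3 and above E16 replicates 1 and 2 (5.70 and 5.78).

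Of the other members among the 10 largest margins, ENSGALG00000006406 (chromosome 4, margin 1.88) was listed at 0 as its median over the adult libraries and reached 4.46, 3.34 and 3.10 at D100. ENSGALG00000007669 (chromosome 13, 1.86) and ENSGALG00000016086 (chromosome 4, 1.84) were highest in D100 replicate 3, and without it their margins were 1.44 and 1.08. The former was at 4.66, 4.61 and 5.89 at D100. The latter was at 1.80, 1.96 and 4.16 at D100 and at 1.12 or lower in every other library. Its FPKM ratio of 10.1 was the largest of the set, but without D100 replicate 3 the ratio was 3.64. ENSGALG00000036712 (chromosome 13, 1.80), ENSGALG00000015626 (chromosome 4, 1.68) and ENSGALG00000034524 (chromosome 9, 1.62) had all 3 D100 libraries above all others.

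The last members were ENSGALG00000009293 on chromosome 7 (margin 0.507), ENSGALG00000007785 on chromosome 12 (0.506) and ENSGALG00000007354 on chromosome 15 (0.506), each with E20 as the next stage. The first mRNAs outside were ENSGALG00000007141 on chromosome 10 (0.496, next stage Y1), ENSGALG00000016719 on chromosome 3 (0.493, Y1) and ENSGALG00000013022 on chromosome 1 (0.493, E12).

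**Figure D1:**
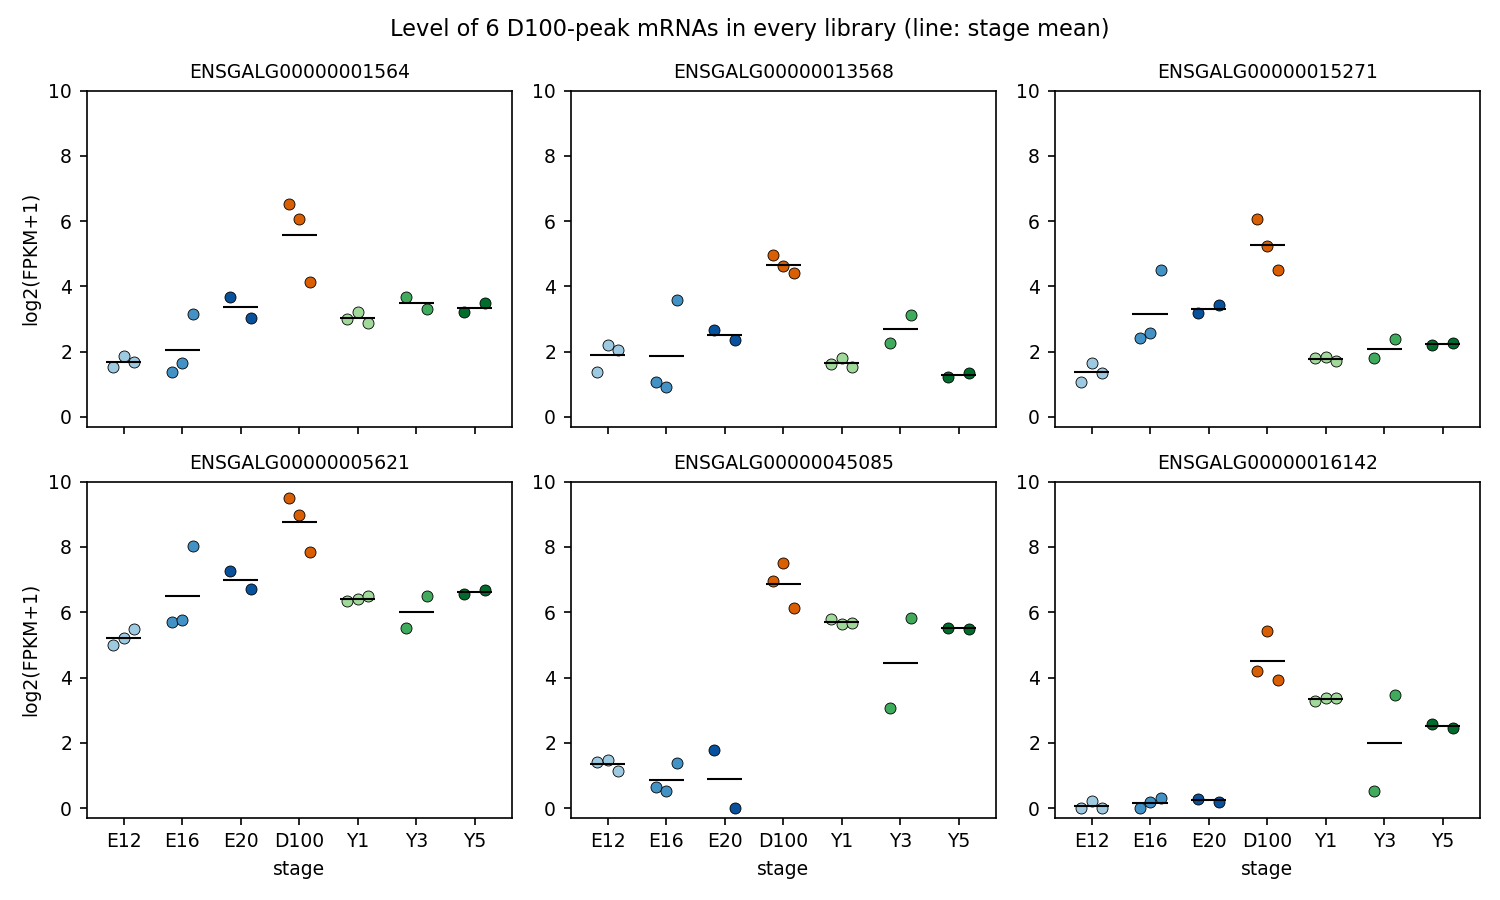
Level of 6 members in every library, in log2(FPKM+1) on the y axis, with stage on the x axis, a point per library in replicate order and a line at the stage mean. The 4 members ENSGALG00000001564, ENSGALG00000013568, ENSGALG00000015271 and ENSGALG00000005621 were lower in every hen than in every D100 library, whereas ENSGALG00000045085 and ENSGALG00000016142 were near 0 to 1.79 in embryos and stayed high in most hens.

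The other stages differed in how near they came to D100. The next highest mean was at E20 in 58 members (41.7%), at Y1 in 27, at Y3 in 23, at Y5 in 13, at E12 in 12 and at E16 in 6. E20 was the next stage in 26.0% of the 850 mRNAs with their highest mean at D100. The lowest mean was at E12 in 47 members (33.8%), against 25.6% of the 850, and at E20 in 7 (5.04%), against 12.8%. The next stage was an embryonic one in 76 members (54.7%) and an adult one in 63 (45.3%). The rule itself used the next stage mean for the margin and compared D100 libraries with every library of the other stages. The stages differ in their number of libraries, and E16 holds a library that stood apart, so the rule did not weigh on all stages alike. The shares of the members and of the 850 are therefore a description in part set by the selection, and its part was not tested.

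The median level of the members was lower at E12 and E16 and in the hens than at E20. The E12, E16 and E20 medians were 3.03, 3.33 and 3.74, but without E16 replicate 3 the E16 median was 2.88, below that of E12. The D100 median was 4.87, and the medians of Y1, Y3 and Y5 were 3.49, 3.27 and 3.43. The median of all mRNAs stayed between 3.37 and 3.54 at every stage. The median member was 0.94 higher at D100 than at E20 and 1.18 higher than at Y1 (1.47 without D100 replicate 3), and the selection fixed this direction.

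**Figure D2:**
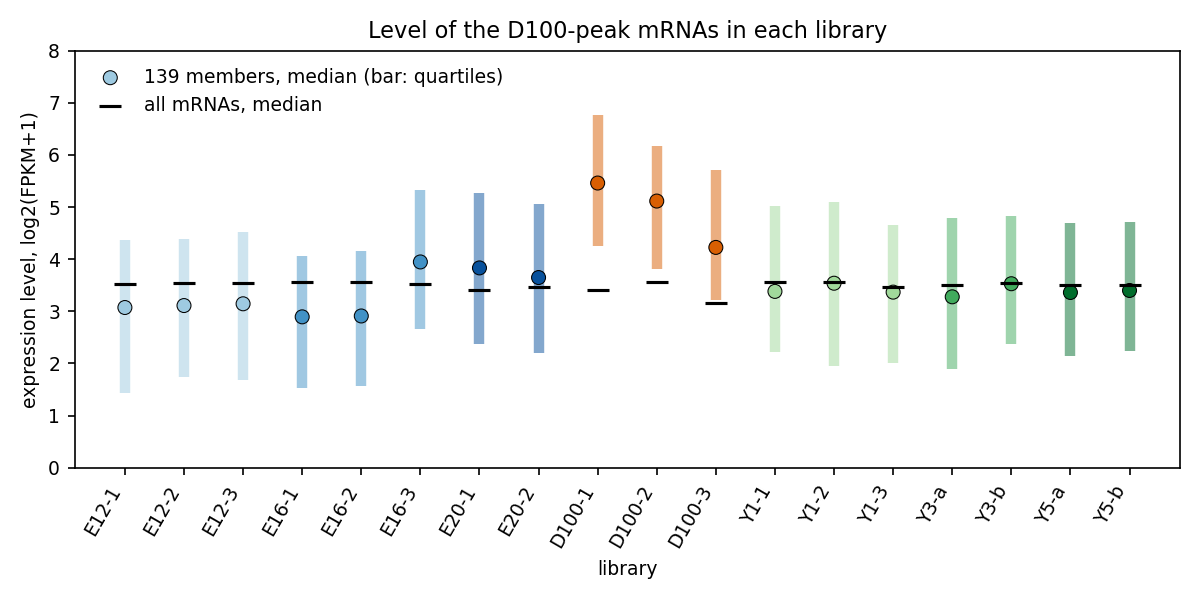
Median level of the 139 members in each library (point) with quartiles (bar) and the median of all mRNAs (dash), in log2(FPKM+1). D100 replicates 1 and 2 had members' medians of 5.46 and 5.12, D100 replicate 3 was at 4.23, and E16 replicate 3 was at 3.95 against 2.89 and 2.91 in its stage mates.

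Members were spread over 18 of the 19 chromosomes used. Chromosome 1 held 24 of its 1848 mRNAs, chromosome 2 held 18 (1.52%) and chromosome 5 held 16 (1.86%). The highest share was on chromosome 12, with 10 of 320 (3.13%), and chromosome 11 held 0 of 334, beside 1.26% over all 19 chromosomes.

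D100 replicate 3 was less high in these mRNAs than D100 replicates 1 and 2. The rule asked nothing of replicate 3 beyond its part in the mean, but it did ask replicates 1 and 2 to be high, so a lower replicate 3 is in part set by the choice of members. D100 replicate 3 was above every library of the other stages in 52 members (37.4%) and not in 87. It was below both other D100 libraries in 121 members (87.1%), between them in 14 and above both in 4, whereas it was below both in 59.8% of all mRNAs. Its median difference from the mean of replicates 1 and 2 was -0.98 in the members and -0.34 in all mRNAs. Beside this stands the 28.8% of mitochondrial mRNAs in this library, whose part was not tested. When FPKM was rescaled without mitochondrial mRNAs and the most abundant mRNA, the median difference was -0.60 in the members and 0.00 in all mRNAs, so the gap between members and all mRNAs was -0.60 against -0.64 before, and replicate 3 was above every other-stage library in 95 members. Median-ratio scaling also gave 95. The share of all mRNAs with replicate 3 above every other-stage library is not given here, so these counts do not set the members apart.

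The members furthest below in D100 replicate 3 were ENSGALG00000007349 on chromosome 10, ENSGALG00000001564 and ENSGALG00000013723 on chromosome 12. ENSGALG00000007349 was at 4.49, 3.67 and 1.83 in the D100 libraries, so replicate 3 was within the range of its embryo libraries, 1.57 to 2.78. ENSGALG00000013723 was at 6.72, 7.80 and 5.11 and was above all embryo libraries in replicate 3 too. In that replicate it was within the range of its adult libraries, 2.48 to 5.67 with a median of 4.81. Replicate 1 was above replicate 2 in 115 members (82.7%), against 44.5% of all mRNAs, a description of libraries that the rule used.

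The set depended on each D100 bird. With replicate 1 or 2 left out, the rule asked only the other of them to be above every library of the other stages. These counts therefore rest on a looser rule than the count without replicate 3. Without replicate 1 the rule gave 89 mRNAs, 65 of them members. Without replicate 2 it gave 152, and 110 members were among the 150 with the largest margins. Without replicate 3, 1396 mRNAs had their highest mean at D100, 403 of them had both remaining libraries above all others, and the rule gave 258. All members were among the 258, with margins of at least 0.512. Under the ceiling, 124 members were among the 150 with the largest margins.

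**Figure D3:**
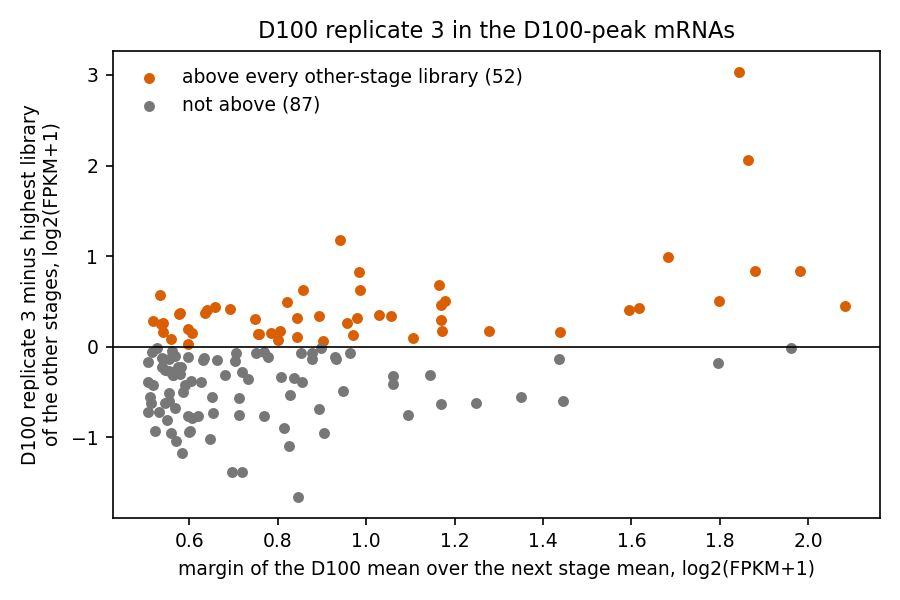
Level in D100 replicate 3 minus the highest library of the other stages (y axis) against the margin of the D100 mean over the next stage mean (x axis), both in log2(FPKM+1), a point per member. D100 replicate 3 was above all other-stage libraries in 52 members and at or under the highest of them in 87.

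A library outside D100 also stood apart in these mRNAs. E16 replicate 3 was above the mean of E16 replicates 1 and 2 in 127 of the 139 members (91.4%), against 47.1% of all mRNAs. The median difference was 0.83 in the members and -0.04 over all mRNAs. This library was above both of them in 121 members (87.1%), and in 5998 of all 14558 mRNAs. It was above both by at least 1 in 51 members (36.7%), whereas this held for 5.91% of all mRNAs, and it was below both by at least 1 in 0 members against 4.68% of all mRNAs. These values compare a single library with its 2 stage mates, so no test was made. The rule set these libraries against D100 and not against each other. The 51 members were 5.92% of the 861 mRNAs that were this high in E16 replicate 3.

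The largest excess of E16 replicate 3 was in ENSGALG00000035058 on chromosome 12, a member singled out after its values were seen. E16 replicates 1 to 3 were at 4.03, 4.05 and 7.53, and the D100 libraries at 7.78, 7.56 and 5.87. In ENSGALG00000016744 on chromosome 1, singled out in the same way, the E16 libraries were at 1.20, 1.52 and 4.68 and the D100 libraries at 5.18, 4.93 and 4.06. In both, this E16 embryo was near D100 replicates 1 and 2 and far from its stage mates. E16 replicate 3 was the highest library outside D100 in 52 members, more often than any other library. E20 replicate 1 followed with 28. Mitochondrial mRNAs took 1.66% of the summed FPKM in E16 replicate 3 against 0.783% and 0.807% in its stage mates, and 80 mRNAs were listed at 0 against 110 and 173. The part of these differences in the result was not tested. Under median-ratio scaling 52 members were at least 1 above both stage mates.

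**Figure D4:**
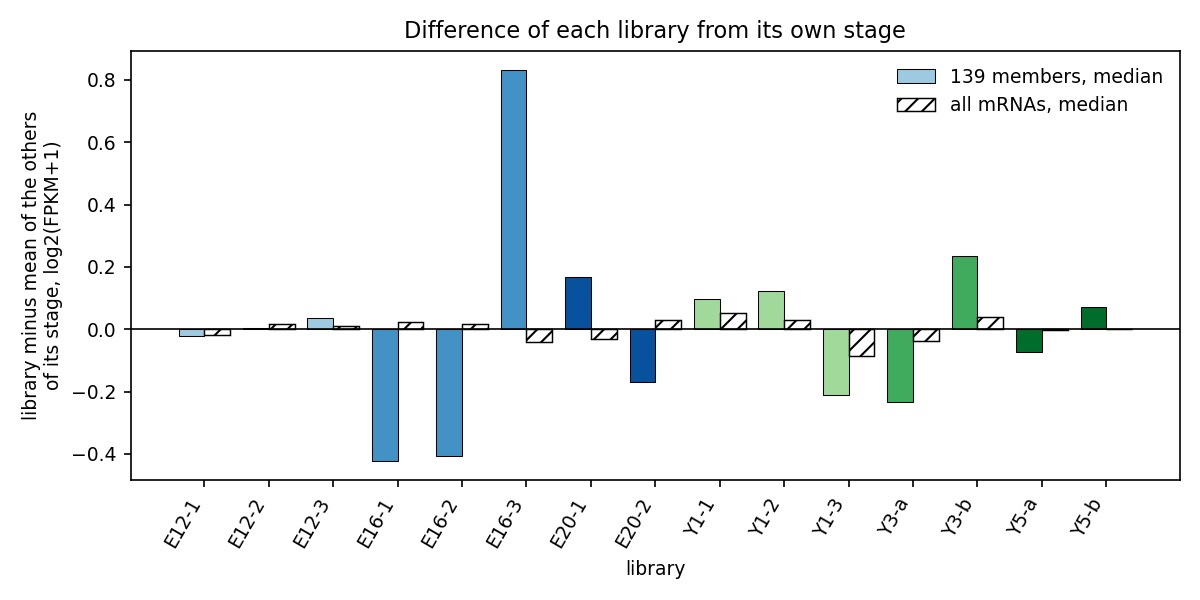
Median difference of each library outside D100 from the mean of the other libraries of its own stage, in log2(FPKM+1), for the 139 members (filled) and all mRNAs (hatched). E16 replicate 3 was at 0.83 in the members and -0.04 in all mRNAs, and the other libraries outside E16 were within 0.24 of their stage mates.

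Smaller differences of the same kind were seen elsewhere. Y3 replicate b was above Y3 replicate a by at least 1 in 20 members (14.4%) against 5.9% of all mRNAs, and below it by at least 1 in 3 members (2.16%) against 4.23%. E20 replicate 1 was above replicate 2 in 93 members (66.9%) against 47.4% of all mRNAs. Y1 replicate 3 was below the mean of its stage mates by a median of -0.21 in the members and -0.09 in all mRNAs. The median SD within a stage was 0.51 at E16 in the members, against 0.26 over all mRNAs. At the other stages outside D100 it lay between 0.13 and 0.29 in the members and between 0.13 and 0.25 in all mRNAs. The widest spread was at D100, 0.66 in the members and 0.38 in all mRNAs, where the values also chose the members.

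Both differences were set side by side in each member. Of the 139 members, 8 were at least 1 higher in both libraries, 43 in E16 replicate 3 alone, 12 in Y3 replicate b alone and 76 in neither. The 8 were 15.7% of the members high in E16 replicate 3 and 40.0% of those high in Y3 replicate b, beside the 36.7% of all members that were high in E16 replicate 3. Over all mRNAs the shared 115 were 13.4% of either list. Beside this stand the 5.91% of all mRNAs high in E16 replicate 3 and the 5.90% high in Y3 replicate b. Y3 replicate b had 4.10% mitochondrial mRNAs and 88 mRNAs at 0, and Y3 replicate a 1.52% and 231. The part of these differences was not tested.

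**Figure D5:**
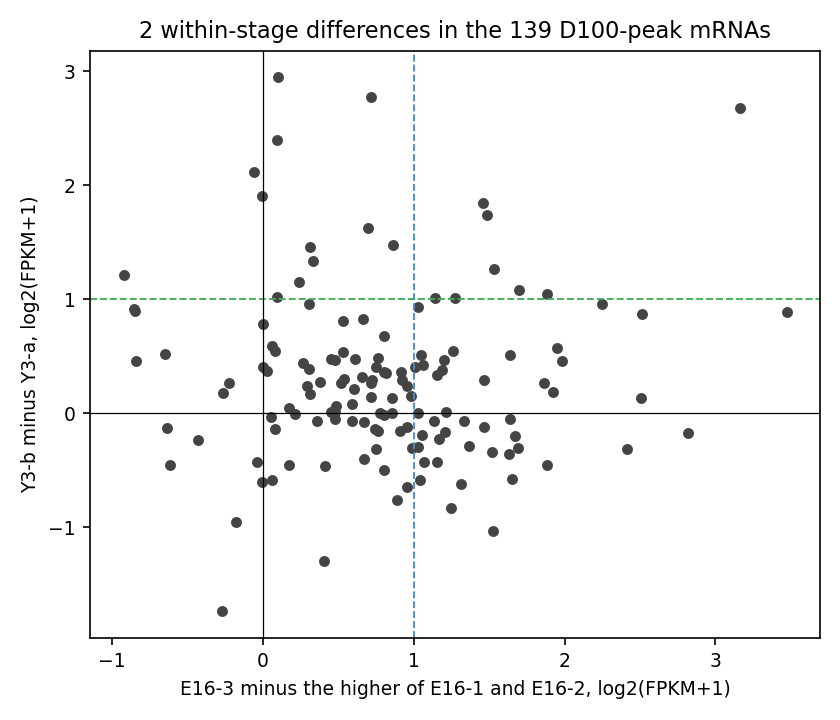
Difference between Y3 replicates b and a (y axis) against the difference of E16 replicate 3 from the higher of E16 replicates 1 and 2 (x axis), in log2(FPKM+1), a point per member, with dashed lines at 1. The 8 members past both lines lie at the upper right, and 43 lie past the E16 line alone.

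Contrasts that set other stages against each other were tested with limma on the levels of all 14558 mRNAs. An mRNA was called where its fold change on the log2(FPKM+1) scale, which understates the change of low mRNAs, was 2 or more in either direction with a Bonferroni-adjusted p of at most 0.05. Lists of mRNAs were not tested as sets. The spread in each test was pooled over all stages, D100 included. The median SD was 0.66 in the members and 0.38 in all mRNAs at D100, and 0.51 and 0.26 at E16. Shares of members called and of all mRNAs called are therefore not like for like, and the size of this effect was not tested. Without D100 replicate 3, 1 member still rose from E16 to E20 and 6 were higher in hens than in embryos. The shares of all mRNAs called in that fit are not given here.

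The share of members called higher in adult hens than in embryos was near the share of all mRNAs. The mean of the Y1, Y3 and Y5 means was called higher than the mean of the E12, E16 and E20 means in 6 members (4.32%), against 3.54% of all mRNAs. It was called lower in 0 members against 2.44%, and at an unadjusted p in 7 members (5.04%) against 5.38%. The unadjusted count of rises is not given here. Whatever the p, 11 of the 139 members and 1058 of all 14558 mRNAs were at least 1 higher in the hens. At least 1 lower were 7 members and 787 of all mRNAs. The median difference was 0.01 in the members and -0.03 in all mRNAs, with 70 members higher in the hens and 69 lower. The embryo mean includes E16 replicate 3, whose median difference from its stage mates was 0.83 in the members and -0.04 in all mRNAs. That library raises the embryo mean of most members, and the median difference and split without it are not given here. Every adult library was above every embryo library in 7 members (5.04%) against 5.87% of all mRNAs, and below in 2 (1.44%) against 5.03%.

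The largest of the 6 rises was in ENSGALG00000045085 on chromosome 6. It was at 0.00 to 1.79 in the 8 embryo libraries with a median of 1.25, at 6.97, 7.52 and 6.13 at D100, and at 3.06 to 5.84 in the 7 adult libraries with a median of 5.64. Embryos and hens did not overlap, and the hens were 4.19 higher (SE 0.36, limma, Bonferroni-adjusted p = 7.34e-05). The lowest hen was Y3 replicate a at 3.06, while Y3 replicate b was at 5.84.

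The other 5 were named because they were called; those not named above were singled out after their values were seen. ENSGALG00000016142 on chromosome 1 was at 0.00 to 0.30 in every embryo library and at 4.20, 5.42 and 3.91 at D100. In the hens it was at 3.28, 3.37 and 3.37 at Y1, at 0.51 and 3.46 at Y3, and at 2.59 and 2.44 at Y5. It was thus near the floor in embryos and in 1 of the 7 hens, and the rise was 2.46 (SE 0.33, limma, Bonferroni-adjusted p = 0.0292). ENSGALG00000013723 on chromosome 12 rose by 3.06 (SE 0.38) and ENSGALG00000028982 on chromosome 3 by 2.05 (SE 0.25). In both, Y3 replicate a was again the lowest hen, at 2.48 and 2.00, against 4.88 and 3.91 in replicate b. Embryo and adult libraries of ENSGALG00000028982 overlapped, at 0.30 to 2.91 and 2.00 to 4.12. Those of ENSGALG00000013723 did not, at 0.82 to 1.82 and 2.48 to 5.67.

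ENSGALG00000008860 on chromosome 4 showed the least spread of the 6. It was at 2.58 to 4.20 in embryos with a median of 2.84, at 5.62, 5.83 and 5.65 at D100, and at 4.71 to 5.28 in hens with a median of 4.92. The 3 D100 libraries were above all hens, and all hens were above all embryos. The hens were 1.67 higher than the embryos (SE 0.11, limma, Bonferroni-adjusted p = 9.65e-07). ENSGALG00000036916 on chromosome 12 rose by 1.12 (SE 0.15), and its embryo and adult libraries overlapped, at 2.86 to 5.07 and 4.45 to 5.35. Leaving out Y5 replicate a or Y5 replicate b lowered the count of rises to 3, and the share of all mRNAs called in those fits is not given here.

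Between E16 and E20, 1 member rose, ENSGALG00000008860. It was at 2.58, 2.68 and 2.86 in the E16 libraries and at 4.20 and 3.97 in the E20 libraries, which did not overlap, and the difference was 1.38 (SE 0.19, limma, Bonferroni-adjusted p = 0.0247). The call was lost, with a count of 0, when any of E16 replicates 1 and 2, either E20 library, any Y1 library or either Y3 library was left out, and when FPKM was rescaled without mitochondrial mRNAs and the most abundant mRNA. Among all mRNAs 0.24% rose and 0.371% fell, and 0 members fell. At an unadjusted p, 20 members rose (14.4%) against 4.24% of all mRNAs, and 1 fell (0.719%) against 6.55%. The median member was 0.33 higher at E20 than at E16, whereas the median of all mRNAs was -0.07, and 111 members (79.9%) were higher against 44.6% of all mRNAs. Without E16 replicate 3 the median difference was 0.67 and 122 members were higher.

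Between E12 and E16, 0 members rose and 0 fell, against 0.055% and 0.103% of all mRNAs. At an unadjusted p, 9 members (6.47%) rose against 2.82% of all mRNAs and 1 (0.719%) fell against 2.77%. The median difference was 0.11 with all E16 libraries and -0.08 without E16 replicate 3, so its direction rested on that library.

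No member passed the test between the adult stages. From Y1 to Y3, 0 rose and 0 fell, against 0% and 0.00687% of all mRNAs. At an unadjusted p 2 (1.44%) rose against 1.09% and 4 (2.88%) fell against 1.33%. From Y3 to Y5, 0 rose and 0 fell, against 0.0481% and 0% of all mRNAs. At an unadjusted p 3 (2.16%) rose against 2.95% and 4 (2.88%) fell against 2.2%. The median differences of the members were -0.12 and 0.03. With 2 libraries each at Y3 and Y5, small differences between these stages were not detectable, and large ones could also miss the call. In ENSGALG00000016564, singled out after its values were seen, Y5 was 2.01 above Y3 (SE 0.77) and was not called.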

How the data were processed

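The authors sequenced rRNA-depleted libraries from cerebrum and deposited mRNA levels as log2 of FPKM plus 1. The submitters' processing notes name HISAT, StringTie 1.3.3 and Cufflinks 2.2.1. Identifiers and chromosomes are those of the deposited table, on Gallus_gallus-5.0. Here limma 3.58.1 in R 4.3.3 was fitted to the deposited values with a mean for each of 7 stages and an intensity trend, in 18 libraries that share 1 estimate of spread, and p-values were adjusted over all 14558 mRNAs. The scripts were tested on simulated data. limma was used in place of the study's count model, since the values are not counts. No filter was applied. FPKM is a share of each library, so an mRNA that takes a large share lowers the others. 3 columns without a stage in their name were not used. Members and lists were chosen with earlier results of these data known. Named were the 10 members with the largest margins, 3 on either side of the threshold, the 3 furthest below in D100 replicate 3, the largest called rise and fall of each contrast, and the members of the fixed gene lists or with a known role, which could not be applied without symbols. No promoter or protein sequence was used. Alternatives were Benjamini-Hochberg adjustment, a pseudocount of 0.1, a minimum mean FPKM of 1, median-ratio scaling, rescaling without mitochondrial mRNAs and the most abundant mRNA, a replicate block, and leaving out each library.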

Additional observations from a re-analysis of the deposited data

How the results depend on the processing

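With Benjamini-Hochberg adjustment, 2 members rose from E12 to E16, 11 rose from E16 to E20, and 11 were higher and 7 lower in adult hens than in embryos. The share of all mRNAs called under this adjustment is not given here, so these counts do not set the members apart from other mRNAs. The single rise from E16 to E20 became 0 after rescaling without mitochondrial mRNAs and the most abundant mRNA. Replicate numbers belonged to separate birds at each stage. Correlations of same-numbered deviations were -0.07, 0.06 and -0.03 between E12 and E16, and -0.34 and 0.34 between E16 and E20. With 2 libraries at E20 their deviations are exact opposites, so the values between E16 and E20 are not independent and cannot decide on a pairing. With the replicate block the rise from E16 to E20 was 0, and it was also 0 in the numbered libraries without the block, a fit chosen after seeing the data. No block was possible for Y3 and Y5, which carry no number. Leaving out each library in turn gave 0 to 1 rises from E16 to E20, 3 to 8 members higher in hens, and 89 to 258 mRNAs that met the rule. Shares of all mRNAs called in these fits are not given here. The rule was looser where D100 replicate 1 or 2 was the library left out. The rule gave 178 mRNAs under median-ratio scaling and 191 under rescaling. D100 replicate 3 was above every other-stage library in 95 members under either scaling, an alternative chosen after seeing the data. The share of all mRNAs for this count is not given here. In the same added alternatives, a pseudocount of 0.1 gave 63 members at least 1 higher in E16 replicate 3, against 8.50% of all mRNAs, and 30 in Y3 replicate b, against 10.5%. The cause was not tested. The median difference of the members from E12 to E16 reversed from 0.114 to -0.0791 without E16 replicate 3, a value added after seeing the data, as were the margins without D100 replicate 3 (median 1.08). The study reports the reads of each library, but no counts per mRNA accompany the levels. Low levels therefore carry an error that the replicates alone show.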
